A study of Mus musculus with 8 samples.

Results

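A set of 40 genes of autophagy and the lysosome were followed in mouse embryonic stem cells (ESCs) depleted of Tip60, of Hdac6 or of both. The members are every non-control probe that carries 1 of 40 listed gene names, which gave 62 of the 39429 probes and 40 of the 30175 gene names on the array. Of these 40 genes, 39 passed the filter on dim probes and were tested among 18116 genes. Atg4a, a protease of the autophagy conjugation system, lay below the lowest level used on all 8 arrays and was not tested. E14 ESCs were grown without feeders and infected for 72 h with lentivirus carrying a short hairpin RNA, with 1 hairpin per target, and RNA was measured on 1-colour Agilent arrays. The 4 groups held 2 arrays each, A and B. Control KD cells received a hairpin against EGFP (labelled EGFP KD), Tip60 KD and Hdac6 KD cells received the hairpin against that gene, and double KD cells both. All cells, controls included, carried the virus, and a knockdown leaves part of the message in place. The comparisons ask how far the acetyltransferase Tip60 and the deacetylase Hdac6 act on the same genes, and here they were read for genes of the pathway in which Hdac6 also acts.

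In autophagy a double membrane closes around cytoplasm, damaged organelles or protein aggregates and fuses with the lysosome, whose hydrolases degrade the contents. Small ubiquitin-like proteins of the LC3 and GABARAP families are coupled to lipid on that membrane and bind receptors that carry the cargo. Hdac6 binds ubiquitinated proteins, carries them to the aggresome along microtubules and acts in the fusion of autophagosomes with lysosomes. Tfeb is a transcription factor of lysosomal and autophagy genes.

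Levels are log2 of the processed signal over the array's 75th percentile, and a value at the floor of -2.71 means no measured order below it. A gene was called where limma's adjusted p over all genes tested was under 0.1. The message of the targeted genes was checked first. Kat5, which encodes Tip60, lay at 1.34 and 1.37 in control KD, 0.00 and 0.01 upon Tip60 KD, 1.52 and 1.53 upon Hdac6 KD and -0.11 and 0.20 in double KD. These levels were 39.2% of control upon Tip60 KD and 40.4% in double KD (adjusted p = 0.0011 and 0.00196). The Hdac6 message lay at 2.21 and 2.18 in control KD, -0.28 and -0.32 upon Hdac6 KD and 0.30 and 0.34 in double KD. It lay at 1.74 and 1.77 upon Tip60 KD, 73.9% of the control level (adjusted p = 0.00622). Each target was therefore lower where its hairpin was given, and Hdac6 remained higher in double KD than upon Hdac6 KD (difference 0.62 ± 0.07 SE, adjusted p = 0.0147).

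Some properties of the arrays moved with the groups. Between 21896 and 40609 of 43020 spots were well above background, and the median background subtracted was 61.0 and 114.3 units in control KD against 37.2 to 89.0 on the other arrays, while negative control spots had median raw signals of 33.6 to 37.2. The 6 of 8 ESC markers with a value on every array summed to 282 to 314 times the 75th percentile, all above the floor. Summed neural markers (4 genes) were 1.87 and 1.90 in control KD, 3.72 and 4.01 upon Tip60 KD, 2.15 and 2.31 upon Hdac6 KD and 3.42 and 3.63 in double KD. Only 2 of these 4 genes were above the floor in control KD and 1 was called in each knockdown (changes up to 1.96), with medians over the 4 of 0.18 upon Tip60 KD and 0.15 in double KD, so that the sum is not a change of the class. Fibroblast markers (5 genes, Dcn below the floor throughout) were 2.01 to 2.23 in control KD, 2.63 to 3.10 upon Tip60 KD, 2.07 to 2.16 upon Hdac6 KD and 2.76 to 3.06 in double KD. At most 3 of these 5 genes were above the floor on any array. Of the 3 tested, 2 were called higher upon Tip60 KD, 0 upon Hdac6 KD and 2 in double KD. Sums of endoderm (5 genes) and trophectoderm markers (4 genes) were at most 1.11 and 1.49 on any array. In RNA from a whole culture, fewer cells of a type and less RNA per cell cannot be told apart, and the part of these markers in the results was not tested.

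Upon Tip60 KD 24 of the 39 tested members were called, 10 higher and 14 lower, which is 61.5% against 39.7% of all genes (19.7% of all genes were called higher and 20.0% lower). Upon Hdac6 KD 20 members were called, 9 higher and 11 lower, 51.3% against 28.9% of all genes (14.0% higher and 14.9% lower), and this count was 11 to 13 without either control KD array or either Hdac6 KD array. In double KD 22 members were called, 7 higher and 15 lower, 56.4% against 32.8% of all genes (15.9% higher and 16.9% lower). Their median changes were -0.06, -0.16 and -0.18 on the log2 scale, beside 0.06, 0.03 and 0.05 over all genes. Calls of at least 1.5-fold took in 17, 10 and 13 members, 43.6%, 25.6% and 33.3%, against 19.2%, 11.3% and 13.2% of all genes. The 3 comparisons share the control arrays. Wipi1, Atg5, Atg7, Atg12, Atg4d, Map1lc3b, Gabarapl1, Calcoco2, Calcoco1, Bnip3, Lamp2 and Tfeb were called in each of them, 5 higher and 7 lower. Of the 39 members, 7 (Ulk1, Ulk2, Atg13, Uvrag, Atg9a, Wipi2 and Atg4b) were called in none in this fit. With the replicate letter, which marks the slide, as a block, all of these but Wipi2 were called in some comparison with control KD. The members therefore did not move as a set: within most roles some rose and others fell, while no protein of the lysosomal lumen was called higher in these comparisons.

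**Figure D1:**
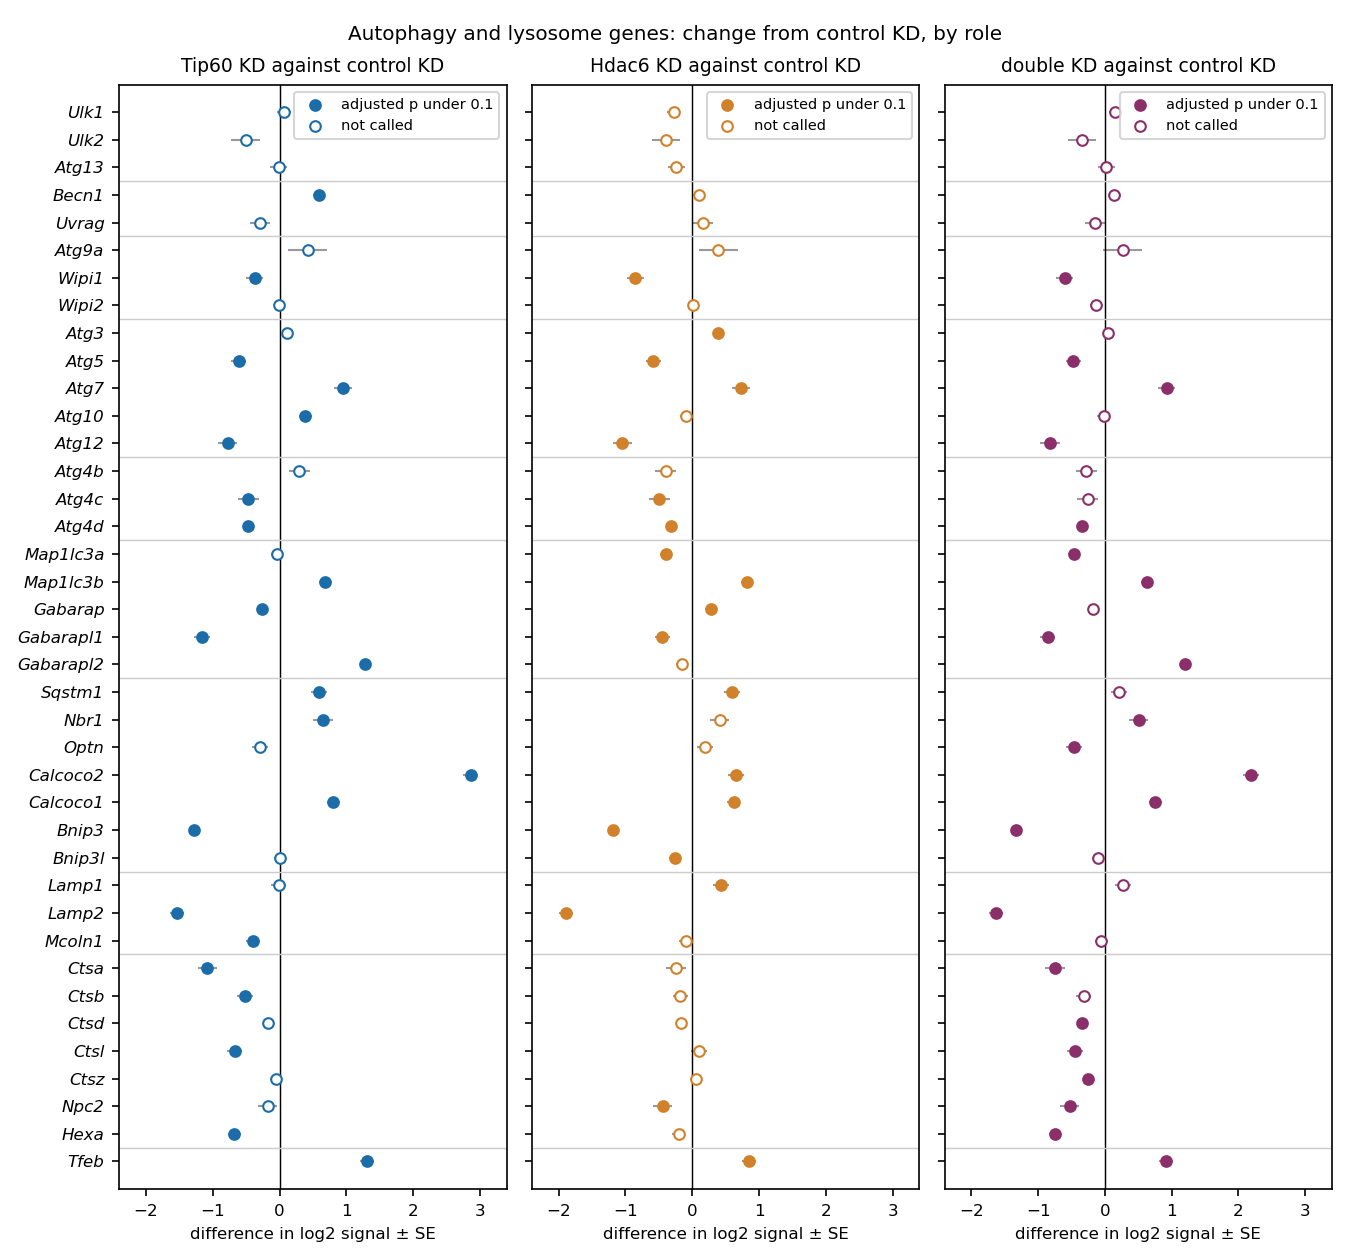
Difference in log2 signal from control KD (x axis, ± SE from the fit) for the 39 tested members, ordered by role with grey lines between roles, upon Tip60 KD, Hdac6 KD and double KD. Filled points are called at an adjusted p under 0.1; Calcoco2 stands farthest to the right upon Tip60 KD (2.86) and Lamp2 farthest to the left in each panel (-1.53, -1.88 and -1.64).

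The kinases and scaffold that start autophagy were not called against control KD in the fit without the block. Changes of Ulk1, Ulk2 and Atg13 ran from -0.51 to 0.15 over the 3 knockdowns. With the replicate letter as a block Ulk2 was called lower upon Tip60 KD (adjusted p = 0.0957). Ulk1 and Atg13 were then called lower upon Hdac6 KD (adjusted p = 0.0508 and 0.0522). Becn1, a subunit of the lipid kinase complex that nucleates the membrane, lay at 0.90 and 0.89 in control KD, 1.47 and 1.51 upon Tip60 KD, 0.89 and 1.09 upon Hdac6 KD and 0.97 and 1.09 in double KD. Only the Tip60 KD arrays stood clear of the rest. Becn1 was 1.51-fold higher there (adjusted p = 0.00687) and was 0.45 ± 0.10 lower in double KD than upon Tip60 KD (adjusted p = 0.0979), a call that was lost under most alternatives. Uvrag, which also binds the lipid kinase complex, changed by -0.30, 0.17 and -0.14. The change upon Tip60 KD was called with the block alone (adjusted p = 0.0166).

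Wipi1, which binds the lipid that the kinase makes, gave different results on its 2 probes, both on chromosome 11 of mm9. On the brighter probe (chr11:109435140-109435199) it lay at -0.63 and -0.76 in control KD, -1.04 and -1.09 upon Tip60 KD, -1.43 and -1.67 upon Hdac6 KD and -1.18 and -1.42 in double KD. All knockdown arrays were below both controls, by 0.37, 0.85 and 0.60 (adjusted p = 0.0744, 0.00925 and 0.0217). The Tip60 KD call was lost without any 1 of the control KD or Tip60 KD arrays (-0.44 to -0.31, adjusted p = 0.129 to 0.269) and the double KD call without control KD array A (-0.53, adjusted p = 0.108). On the other probe (chr11:109436607-109436666) the levels were -1.35 and -1.55 in control KD, -1.48 and -1.27 upon Tip60 KD, -1.52 and -1.57 upon Hdac6 KD and -1.25 and -0.95 in double KD. There none of the differences, 0.07, -0.10 and 0.35, was called. With the mean of both probes Wipi1 was called upon Hdac6 KD (-0.47) and not upon Tip60 KD (-0.15) or in double KD (-0.12).

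Probes of Wipi2, Bnip3l and Ctsd also went opposite ways in some comparisons, and no member had probes called in opposite directions. Wipi2, a relative of Wipi1, read 0.03 and 0.02 in control KD, 0.05 and 0.00 upon Tip60 KD, 0.01 and 0.07 upon Hdac6 KD and -0.04 and -0.18 in double KD. Its other probe read -0.24 and -0.26, -0.17 and -0.32, -0.43 and -0.48, and -0.07 and -0.16 in the same order of groups. Neither probe was called against control KD. Atg9a, the membrane protein that supplies lipid to the growing structure, changed by 0.42, 0.39 and 0.27, without a call in the fit without the block. With the replicate letter as a block all of these changes were called (adjusted p = 0.00769, 0.0138 and 0.0425).

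The enzymes that couple LC3 to lipid diverged. Atg5, which forms a ligase with Atg12, lay at 2.52 and 2.50 in control KD, 1.82 and 1.99 upon Tip60 KD, 1.82 and 2.04 upon Hdac6 KD and 1.98 and 2.10 in double KD. Every knockdown array was below both controls, at 65.5%, 66.8% and 72.1% of the control mean (adjusted p = 0.00978, 0.0183 and 0.0297). The double KD call was lost without control KD array A or B or double KD array A (-0.48 to -0.41, adjusted p = 0.105 to 0.124). Atg12, the ubiquitin-like partner, lay at 2.80 and 2.71 in control KD, 2.11 and 1.85 upon Tip60 KD, 1.84 and 1.59 upon Hdac6 KD and 2.06 and 1.81 in double KD. It was likewise lower in each group, at 58.4%, 48.5% and 56.6% of control (adjusted p = 0.0107, 0.00764 and 0.0123). A dimmer probe of Atg12 was lower as well, by 0.33, 0.88 and 0.41, and was called upon Hdac6 KD alone.

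Atg7, the activating enzyme upstream of both, went the other way. Its levels were -2.01 and -2.39 in control KD, -1.24 and -1.27 upon Tip60 KD, -1.49 and -1.46 upon Hdac6 KD and -1.23 and -1.32 in double KD. It was 1.93, 1.66 and 1.90-fold higher (adjusted p = 0.00411, 0.016 and 0.0068), at low signal. With 1 background for all arrays, an alternative chosen after seeing the data, the changes were 0.71, 0.51 and 0.69 in place of 0.95, 0.73 and 0.92, and were called. Atg3, the enzyme that hands LC3 to its lipid, was called upon Hdac6 KD (0.39 ± 0.07, adjusted p = 0.0157). Atg10, the matching enzyme for Atg12, was called upon Tip60 KD (0.39 ± 0.10, adjusted p = 0.0308), where it was above the floor on 4 arrays in all and was not called with the common background (adjusted p = 0.125). Of the Atg4 proteases, which process LC3, Atg4d was lower in all comparisons (-0.46, -0.31 and -0.35) and Atg4c upon Tip60 KD (-0.47) and Hdac6 KD (-0.49). Atg4b (0.29, -0.40 and -0.28) was not called in the fit without the block. With the replicate letter as a block it was called higher upon Tip60 KD and lower in the other groups (adjusted p = 0.00553, 0.00294 and 0.00798). The Atg4c calls were lost under 8 and 9 of 18 alternatives, among them leaving out either control KD array, and a dimmer probe of Atg4c was not called (-0.21 and -0.23).

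The LC3 and GABARAP proteins, which share the membrane and receptor roles, went in different directions. Map1lc3b, the LC3 form that serves as the usual autophagosome marker, lay at 0.90 and 0.88 in control KD, 1.67 and 1.48 upon Tip60 KD, 1.73 and 1.69 upon Hdac6 KD and 1.57 and 1.47 in double KD. All 6 knockdown arrays were above the controls, and the increases were 1.61, 1.76 and 1.55-fold (adjusted p = 0.00359, 0.00443 and 0.00697).

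Gabarapl1 (chr6:129492254-129492313) fell in each group. It lay at 1.88 and 1.77 in control KD, 0.76 and 0.58 upon Tip60 KD, 1.42 and 1.33 upon Hdac6 KD and 1.09 and 0.86 in double KD, with no overlap between any 2 groups. These levels were 44.8%, 73.3% and 55.3% of control (adjusted p = 0.00163, 0.0435 and 0.00579), and the Hdac6 KD call was lost without either control KD array or either Hdac6 KD array (-0.50 to -0.40, adjusted p = 0.111 to 0.191).

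Gabarapl2 (chr8:114476386-114476445) was high where Tip60 was depleted. Its levels were 2.81 and 2.86 in control KD arrays, 4.14 and 4.08 upon Tip60 KD, 2.67 and 2.67 upon Hdac6 KD and 3.97 and 4.09 in double KD. The Tip60 KD and double KD arrays overlapped each other and lay far above the rest. The increase was 2.42-fold upon Tip60 KD (adjusted p = 0.000679) and 2.30-fold in double KD (adjusted p = 0.00126), against -0.16 ± 0.08 upon Hdac6 KD (adjusted p = 0.224). Double KD exceeded Hdac6 KD by 1.36 ± 0.08 (adjusted p = 0.00475). The probe's annotation also lists a predicted transcript, so that a near-identical copy could contribute to the signal.

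Gabarap was lower upon Tip60 KD (-0.26 ± 0.08, adjusted p = 0.0522) and higher upon Hdac6 KD (0.27 ± 0.08, adjusted p = 0.0566). It was the 1 member called in both directions in the fit without the block, on its brighter probe. With the block Atg4b was called in both directions as well. The other probe of Gabarap was not called in the single knockdowns (-0.10 and 0.13) and was lower in double KD (-0.35, adjusted p = 0.0491), where the brighter probe was not called. Map1lc3a was lower upon Hdac6 KD (-0.39) and in double KD (-0.46) and changed by -0.04 upon Tip60 KD.

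Cargo receptors held both the largest increase and a marked decrease. Calcoco2 is the mouse gene for NDP52, whose human form binds ubiquitin and galectins on damaged vesicles and invading bacteria. Such binding by the mouse protein was not measured here. The levels of Calcoco2 (chr11:95961235-95961294) were -0.75 and -0.82 in control KD, 2.05 and 2.10 upon Tip60 KD, -0.01 and -0.26 upon Hdac6 KD and 1.5 and 1.29 in double KD. The 4 groups did not overlap, in the order Tip60 KD, double KD, Hdac6 KD and control KD. The increases over control were 7.26-fold upon Tip60 KD (adjusted p = 0.000484), 1.57-fold upon Hdac6 KD (adjusted p = 0.0157) and 4.54-fold in double KD (adjusted p = 0.000966). Double KD lay below Tip60 KD by 0.68 ± 0.12 (adjusted p = 0.0761), a call lost under most alternatives, and above Hdac6 KD by 1.53 ± 0.12 (adjusted p = 0.0056). A second probe (chr11:95961627-95961686) gave changes of 3.02, 0.82 and 2.37.

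**Figure D2:**
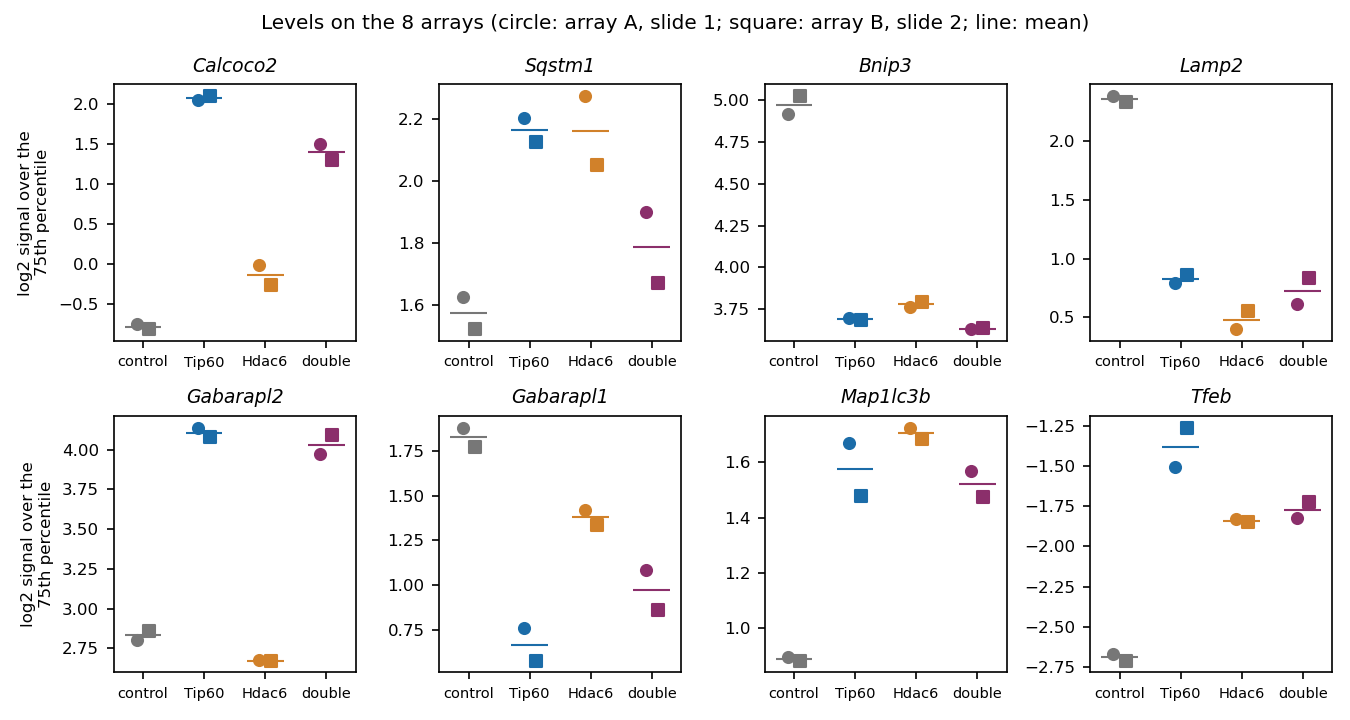
Log2 signal over the array's 75th percentile (y axis, a separate range in each panel) of 8 members on every array, with circles for array A, squares for array B and a line at the mean of each group. Calcoco2 and Gabarapl2 are high in the Tip60 KD and double KD arrays (1.29 to 2.10 and 3.97 to 4.14), while Bnip3 and Lamp2 are high in control KD alone (4.91 and 5.02, 2.38 and 2.34).

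Sqstm1 (p62), the receptor that gathers ubiquitinated proteins, lay at 1.62 and 1.52 in control KD, 2.20 and 2.13 upon Tip60 KD, 2.27 and 2.05 upon Hdac6 KD and 1.90 and 1.67 in double KD. All knockdown arrays were above the controls, and double KD was the nearest to them. The change was 0.59 ± 0.12 in each single knockdown (adjusted p = 0.0143 and 0.0224) and 0.21 ± 0.12 in double KD (adjusted p = 0.274, or 0.0429 with the replicate letter as a block). A second, dim probe of Sqstm1 changed by 0.11, 0.26 and 0.22 and was not called in any comparison (adjusted p = 0.632, 0.269 and 0.357). The Hdac6 KD call of Sqstm1 was lost without control KD array B (0.54, adjusted p = 0.108) and without Hdac6 KD array A (0.48, adjusted p = 0.104).

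Nbr1, a relative of p62, lay at 0.14 and 0.04 in control KD, 0.88 and 0.61 upon Tip60 KD, 0.58 and 0.42 upon Hdac6 KD and 0.74 and 0.45 in double KD. Again no knockdown array fell into the control range. It was 1.57-fold higher upon Tip60 KD (adjusted p = 0.0186) and changed by 0.41 ± 0.14 upon Hdac6 KD (adjusted p = 0.102, or 0.00689 with the block). In double KD it was 1.42-fold higher (adjusted p = 0.0529), and this call was lost without control KD array A (0.55, adjusted p = 0.139) or B (0.46, adjusted p = 0.189) and without double KD array A (0.36, adjusted p = 0.194).

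Calcoco1, a receptor for the endoplasmic reticulum, had low signal. It lay at -2.63 and at the floor in control KD, -1.91 and -1.82 upon Tip60 KD, -1.95 and -2.16 upon Hdac6 KD and -1.91 and -1.92 in double KD, so that 1 control array had no measured level. With that array set to the floor, Calcoco1 was 1.75, 1.54 and 1.69-fold higher (adjusted p = 0.00263, 0.0103 and 0.00498), folds that depend on the floor, and none of these calls held in the authors' normalised values. Optn, another ubiquitin-binding receptor, was lower in double KD (-0.46 ± 0.12, adjusted p = 0.0409). It lay at -2.16 and -2.29 in control KD and at -2.67 and the floor in double KD, so the size depends on the floor.

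Bnip3, an outer mitochondrial membrane receptor that is induced by low oxygen, fell by a like amount in each group. Its levels (chr7:146082760-146082819) were 4.91 and 5.02 in control KD, 3.70 and 3.68 upon Tip60 KD, 3.76 and 3.80 upon Hdac6 KD and 3.63 and 3.64 in double KD. The controls stood apart, and all 6 knockdown arrays lay between 3.63 and 3.80. Bnip3 was at 41.2%, 43.9% and 39.7% of control (adjusted p = 0.000608, 0.00159 and 0.000996). Its other 2 probes fell by 1.23 to 1.54. The related receptor Bnip3l was lower upon Hdac6 KD (-0.25 ± 0.09, adjusted p = 0.0927), with array levels of 3.90 and 4.0 in control KD, 3.96 and 3.97 upon Tip60 KD, 3.67 and 3.73 upon Hdac6 KD and 3.77 and 3.92 in double KD. In the same order of groups its second probe read 3.07 and 2.94, 2.96 and 2.75, 2.58 and 2.46, and 2.83 and 2.67. The third read 2.86 and 2.64, 2.99 and 2.69, 2.58 and 2.42, and 2.77 and 2.55, and the fourth 2.68 and 2.59, 2.74 on 1 Tip60 KD array, 2.32 and 2.11, and 2.68 and 2.55. The changes of the 4 probes were -0.49 to -0.25 upon Hdac6 KD, 3 of them called, and -0.15 to 0.11 upon Tip60 KD, none called. The fourth probe was missing on Tip60 KD array A, where its spot was marked as an outlier.

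Lamp2, a main glycoprotein of the lysosomal membrane that is needed for fusion with autophagosomes and, in one splice form, for chaperone-mediated autophagy, showed the largest decrease of all members. The brighter probe (chrX:35772774-35772833) read 2.38 and 2.34 in control KD, 0.79 and 0.86 upon Tip60 KD, 0.40 and 0.56 upon Hdac6 KD and 0.61 and 0.83 in double KD. All knockdown arrays lay far below both controls, and double KD overlapped Tip60 KD. The levels were 34.6%, 27.1% and 32.2% of control (adjusted p = 0.000764, 0.00152 and 0.00122), and double KD differed from Tip60 KD by -0.10 ± 0.11 (adjusted p = 0.749).

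A second Lamp2 probe (chrX:35777505-35777564), annotated to another RefSeq transcript of the gene, fell less. It read -0.27 and -0.21 in control KD, -0.61 and -0.58 upon Tip60 KD, -0.93 and -0.78 upon Hdac6 KD and -0.81 and -0.69 in double KD. The groups were again clear of control, with changes of -0.36, -0.62 and -0.51 (adjusted p = 0.0261, 0.00771 and 0.0112 over all probes). With the mean of both probes the Lamp2 changes were -0.94, -1.25 and -1.07. The difference between the probes was not tested.

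**Figure D3:**
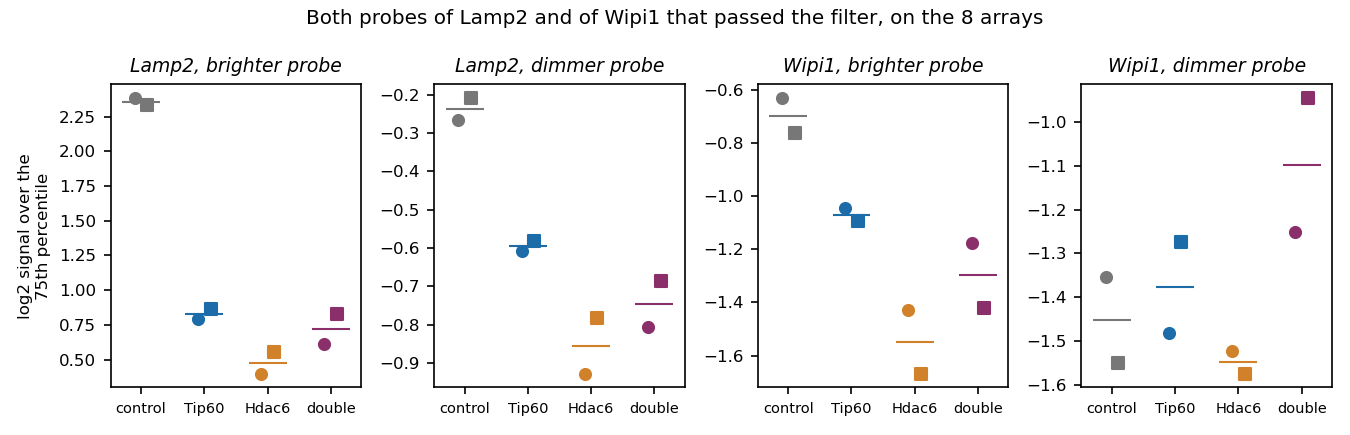
Log2 signal over the array's 75th percentile (y axis, a separate range in each panel) on every array for the 2 probes of Lamp2 and the 2 probes of Wipi1 that passed the filter, with circles for array A, squares for array B and a line at the mean. Both Lamp2 probes are highest in control KD, by 1.53 to 1.88 on the brighter and 0.36 to 0.62 on the dimmer probe, whereas the dimmer Wipi1 probe has no called difference.

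Lamp1, the companion glycoprotein, did not follow Lamp2. It changed by -0.01 ± 0.12 upon Tip60 KD, 0.44 ± 0.12 upon Hdac6 KD (adjusted p = 0.0519) and 0.27 ± 0.12 when both were depleted (adjusted p = 0.166, or 0.0276 with the block). Mcoln1, the calcium channel of the lysosome, was lower upon Tip60 KD (-0.40 ± 0.10, adjusted p = 0.0292) and changed by -0.10 and -0.06 in the other groups.

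The calls among the soluble proteins of the lysosomal lumen were all decreases. Of 7 measured, 4 fell upon Tip60 KD (57.1%, against 20.0% of all genes called lower), 6 fell in double KD (85.7%, against 16.9%) and 1 fell upon Hdac6 KD (14.3%, against 14.9%). With the replicate letter as a block 5 fell upon Tip60 KD, 7 in double KD and 5 upon Hdac6 KD, so that the low count upon Hdac6 KD holds for the unpaired fit alone. The block also called more of all 18116 genes, 11022 upon Tip60 KD, 6002 of them higher. In double KD these counts were 10045 and 5303, and upon Hdac6 KD 9591 and 5028. Their medians were -0.52 upon Tip60 KD, -0.45 in double KD and -0.18 upon Hdac6 KD.

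Ctsa, a carboxypeptidase that also protects other lysosomal enzymes, lay at 2.63 and 2.33 in control KD, 1.54 and 1.26 upon Tip60 KD, 2.34 and 2.15 upon Hdac6 KD and 1.77 and 1.70 in double KD. The Hdac6 KD arrays overlapped control KD, and the other groups lay below both. Within each slide Ctsa was nevertheless lower upon Hdac6 KD than in control KD (-0.30 and -0.18). Its change of -0.24 there was called with the block alone (adjusted p = 0.335 without it and 0.0476 with it). Ctsa was at 47.3% and 59.5% of control upon Tip60 KD and in double KD (adjusted p = 0.00399 and 0.0179).

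Hexa, which removes sugar residues from gangliosides, lay at 3.01 and 2.85 in control KD, 2.26 and 2.24 upon Tip60 KD, 2.76 and 2.69 upon Hdac6 KD and 2.25 and 2.12 in double KD. It was at 62.6% and 59.8% of control upon Tip60 KD and in double KD (adjusted p = 0.0038 and 0.00457). Ctsl, a cysteine protease, lay at 4.97 and 4.83 in control KD, 4.28 and 4.18 upon Tip60 KD, 5.09 and 4.93 upon Hdac6 KD and 4.58 and 4.34 in double KD. Hexa and Ctsl were thus low in the groups with Tip60 depletion, and Hdac6 KD lay just below the controls for Hexa and overlapped them for Ctsl. Ctsl was at 62.7% and 73.5% of control in these groups (adjusted p = 0.00862 and 0.0422). The double KD call was lost without control KD array A (-0.38, adjusted p = 0.179) and without double KD array B (-0.33, adjusted p = 0.163). In the comparison of double KD with Hdac6 KD, Hexa was lower by 0.54 ± 0.09 (adjusted p = 0.0356) and Ctsl by 0.55 ± 0.12 (adjusted p = 0.059).

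Ctsb, another cysteine protease, was called upon Tip60 KD (-0.52 ± 0.12, adjusted p = 0.0194). In double KD it changed by -0.32 ± 0.12 (adjusted p = 0.101, or 0.00853 with the block). Npc2, which hands cholesterol to its exporter, was lower upon Hdac6 KD and in double KD, by 0.44 ± 0.14 and 0.52 ± 0.14 (adjusted p = 0.0843 and 0.0477). Ctsz was called in double KD (-0.25). The aspartic protease Ctsd was called in double KD as well (-0.35 ± 0.08, adjusted p = 0.0238), with levels of 3.01 and 3.04 in control KD, 2.87 and 2.85 upon Tip60 KD, 2.89 and 2.82 upon Hdac6 KD and 2.73 and 2.62 in double KD. Its other probe read -0.39 and -0.54, -0.94 and -0.85, -0.28 and -0.50, and -0.41 and -0.68 in the same order of groups, and was called upon Tip60 KD (-0.42).

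**Figure D4:**
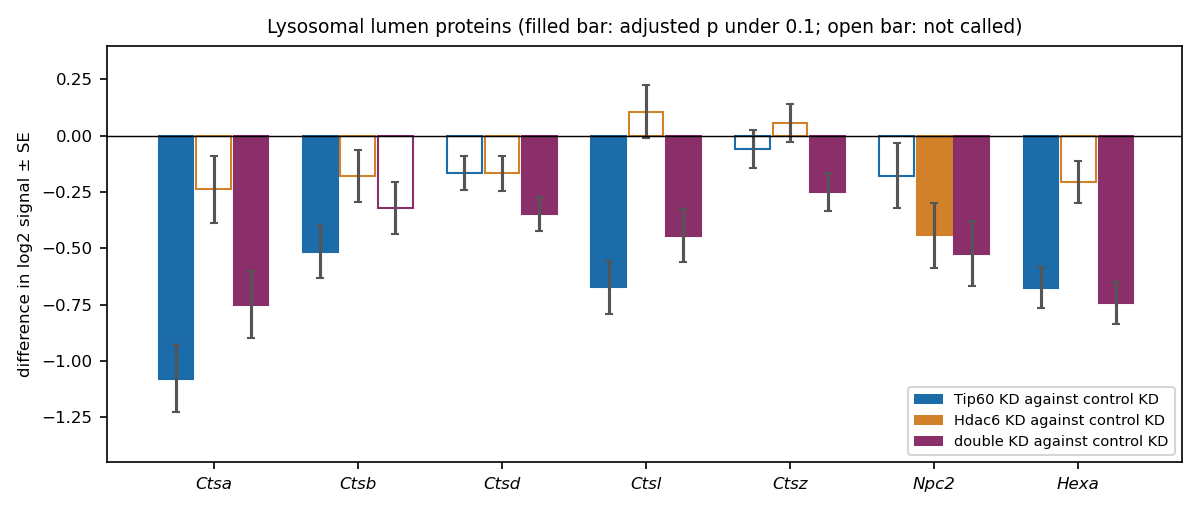
Difference in log2 signal from control KD (y axis, ± SE from the fit) for the 7 proteins of the lysosomal lumen in the 3 knockdowns, with filled bars for calls at an adjusted p under 0.1 and open bars for the others. The Tip60 KD and double KD bars all lie below 0 (-1.08 to -0.06 and -0.75 to -0.25), and among the Hdac6 KD bars only Npc2 is called (-0.44) in this fit without the block.

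Tfeb itself was higher in every knockdown, while none of the 7 members of the lysosomal lumen was called higher. Its probe (chr17:47929089-47929148) read -2.67 and the floor in control KD, -1.51 and -1.26 upon Tip60 KD, -1.83 and -1.85 upon Hdac6 KD and -1.82 and -1.73 in double KD. Both control arrays lay at or beside the floor, 1 of them not well above background, so the fold depends on the background. It was 2.47, 1.80 and 1.89-fold higher on these values (adjusted p = 0.000971, 0.00525 and 0.00359), and with the common background the changes were 1.22, 0.70 and 0.72, all called.

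Tfeb and its relatives bind E-box sites with the core CACGTG, and the longer TCACGTGA lies at the centre of the element described in lysosomal promoters. Promoter windows from RefSeq (GRCm38.p6, 250 bases before to 50 after each start) were given for 34 of the 40 members, in 40 windows. The letters TCACGTGA, which read the same on both strands and contain the shorter motif, were in 4 of these 40 windows, those of Atg3, Mcoln1, Ctsa and Ctsd, and in 0.974% of all 32851 windows. CACGTG was in 9 of the 40 (Atg3, Atg5, Atg7, Bnip3, Lamp1, Mcoln1, Ctsa, Ctsd and Ctsl) and in 7.15% of all windows. The 120 bases before the start are given for 6 members to show where the motif lies, 5′ to 3′ on the strand of the gene, in lower case with CACGTG or TCACGTGA in capitals.
Ctsa, chr2:164833653-164833772, plus strand: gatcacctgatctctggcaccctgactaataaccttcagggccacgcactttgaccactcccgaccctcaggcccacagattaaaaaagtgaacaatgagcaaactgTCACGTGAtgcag
Ctsd, chr7:142387828-142387947, minus strand: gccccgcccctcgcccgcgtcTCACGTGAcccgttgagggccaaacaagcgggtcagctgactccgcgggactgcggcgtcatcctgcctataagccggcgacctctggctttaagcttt
Mcoln1, chr8:3500399-3500518, plus strand: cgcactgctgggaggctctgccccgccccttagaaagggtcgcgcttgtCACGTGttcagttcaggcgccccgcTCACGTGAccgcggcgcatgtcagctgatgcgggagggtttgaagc
Atg3, chr16:45158709-45158828, plus strand: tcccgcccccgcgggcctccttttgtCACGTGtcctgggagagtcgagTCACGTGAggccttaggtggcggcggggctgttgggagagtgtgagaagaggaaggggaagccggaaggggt
Lamp1, chr8:13159041-13159160, plus strand: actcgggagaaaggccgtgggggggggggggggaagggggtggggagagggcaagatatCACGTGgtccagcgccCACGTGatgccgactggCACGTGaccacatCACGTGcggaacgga
Bnip3, chr7:138909507-138909626, minus strand: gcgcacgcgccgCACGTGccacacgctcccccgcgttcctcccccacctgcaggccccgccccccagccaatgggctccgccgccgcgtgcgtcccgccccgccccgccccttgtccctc

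The Lamp1 stretch holds 4 copies of CACGTG, Mcoln1 and Atg3 hold 2 each, of which 1 is the longer form, and a second TCACGTGA of Ctsa lies just past the start. The 9 members with a motif did not share a direction. Upon Tip60 KD Ctsa, Ctsl, Mcoln1, Atg5 and Bnip3 were called lower, Atg7 was called higher, and Lamp1, Atg3 and Ctsd were not called. These matches are a description of letters, and binding was not measured in these arrays.

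**Figure D5:**
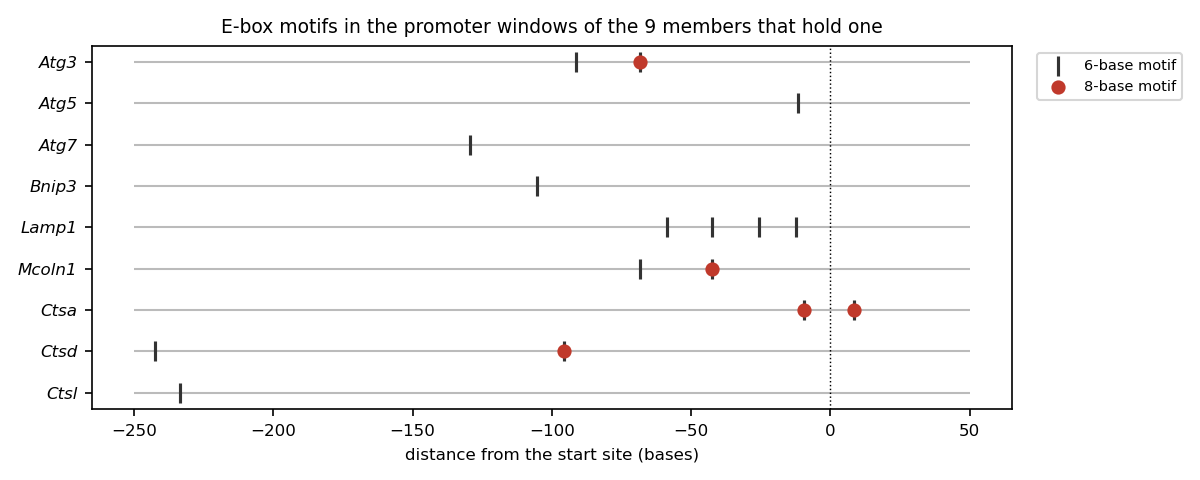
Position of the 6-base motif CACGTG (black ticks) and of the 8-base form that contains it (red points) in the promoter windows of the 9 members that hold one, as distance from the start site in bases (x axis, from 250 before to 50 after). Lamp1 holds 4 ticks close to the start, and Ctsa has a red point on either side of it.

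Adding Hdac6 knockdown to Tip60 knockdown called few members. In double KD against Tip60 KD 2 of 39 were called, Becn1 and Calcoco2, both lower, 5.13% against 3.71% of all genes (1.15% higher and 2.56% lower). With the replicate letter as a block this count was 17, 7 higher and 10 lower, beside 4748 of all 18116 genes, 2386 of them higher. Both unpaired calls were lost without any 1 of the 8 arrays, as were nearly all calls over all genes. In double KD against Hdac6 KD 8 members were called, 20.5% against 10.1% of all genes (5.37% higher and 4.73% lower). Higher were Ulk1 (0.43), Gabarapl2 (1.36) and Calcoco2 (1.53), and lower were Atg3 (-0.34), Gabarap (-0.45), Optn (-0.65), Ctsl (-0.55) and Hexa (-0.54). Optn lay at or beside the floor in double KD. The block called 5325 of all 18116 genes there and raised the count of members to 19. Leaving out any 1 Hdac6 KD or double KD array lowered it to 2, and all but Gabarapl2 and Calcoco2 then lost their calls.

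The interaction, the double KD change less the sum of the single changes, was called for 16 of the 39 members (41.0%), 8 above and 8 below 0, against 22.0% of all genes (11.1% above and 10.9% below). With the block it was called for 25 members, beside 8528 of all 18116 genes. Without any 1 array fewer members were called than with all arrays. The largest terms were those of Lamp2 (1.78), Calcoco2 (-1.33), Tfeb (-1.24) and Bnip3 (1.13). The control arrays enter the interaction and the single changes with opposite signs, so that these values are not independent of each other. Lamp2 fell by 1.53 and 1.88 upon the single knockdowns and by 1.64 in double KD, Bnip3 by 1.28, 1.19 and 1.33, and Map1lc3b rose by 0.69, 0.82 and 0.63. For these genes the double KD change was about that of 1 knockdown alone. The Hdac6 message was less depleted in double KD than upon Hdac6 KD and had a called term of its own (1.05, adjusted p = 0.00764). Unequal depletion and a changed effect cannot be told apart.

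The replicate letter, which marks the slide, added calls and removed none in the comparisons with control KD, giving 30, 29 and 29 members. The rise was not particular to the members. Over all 18116 genes the calls rose from 7201, 5240 and 5939 to 11022, 9591 and 10045. Called only with the block upon Tip60 KD were Ulk2 (adjusted p = 0.0957), Uvrag (0.0166), Atg9a (0.00769), Atg4b (0.00553), Optn (0.0284) and Ctsd (0.0644). Added upon Hdac6 KD were Ulk1 (0.0508), Atg13 (0.0522), Atg9a (0.0138), Atg4b (0.00294), Nbr1, Ctsa (0.0476), Ctsb (0.0593), Ctsd (0.0708) and Hexa (0.0397). Those added in double KD were Atg9a (0.0425), Atg4b (0.00798), Atg4c (0.0148), Gabarap (0.0381), Sqstm1, Lamp1 and Ctsb.

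Leaving out 1 array ended further calls against control KD. Upon Tip60 KD these were Gabarap without any 1 control KD or Tip60 KD array (-0.28 to -0.23), Mcoln1 without either control KD array or Tip60 KD array B (-0.40 to -0.32), and Atg10 without control KD array B or Tip60 KD array B (0.30 and 0.32). Gabarap (0.23 to 0.32), Lamp1 (0.36 to 0.52) and Npc2 (-0.49 to -0.39) lost the Hdac6 KD call without any 1 control KD or Hdac6 KD array, and Bnip3l (-0.30 to -0.21) lost it without a Tip60 KD array as well. Map1lc3a lost it without either control KD array or Hdac6 KD array A (-0.40 to -0.31), and Atg4d without control KD array B or either Hdac6 KD array (-0.35 to -0.27). In double KD, Atg4d was lost without double KD array A or control KD array B (-0.32 to -0.30), Optn without control KD array A or either double KD array (-0.48 to -0.40) and Npc2 without either control KD array or double KD array B (-0.54 to -0.37). Ctsz lost its call without any 1 array other than double KD array A (-0.26 to -0.17).

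Of 111 further genes of the pathway 105 were tested, and 57, 37 and 41 were called in the 3 knockdowns (54.3%, 35.2% and 39.0%), against 39.7%, 28.9% and 32.8% of all genes. Among 27 other autophagy genes 11 rose and 6 fell upon Tip60 KD (63.0% called), and 8 rose and 4 fell in each of the other groups (44.4%). Atg2a, a lipid transfer protein, rose by 1.19 upon Tip60 KD and 0.66 in double KD. The lipid kinase subunits Pik3r4 and Pik3c3 rose by 1.12 and 1.09 upon Tip60 KD, and Pik3r4 by 0.61 and 0.75 in the other groups. Becn1, a partner of both kinase subunits, was called upon Tip60 KD as well.

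Among 40 other lysosomal enzymes and membrane proteins 7 rose and 13 fell upon Tip60 KD, 5 and 9 upon Hdac6 KD and 6 and 10 in double KD, or 50%, 35.0% and 40% called. Gm2a, the ganglioside activator that works with Hexa, fell by 1.05, 0.80 and 0.80. Neu1, the sialidase that Ctsa protects, fell by 1.01, 0.63 and 0.81, and Gaa, the acid glucosidase, by 0.95, 0.76 and 0.85. The largest increase of this list upon Tip60 KD was 0.93. Manba lay at 3.13 and 3.00 in control KD and at 4.11 and 3.88 upon Tip60 KD. Of 16 subunits of the proton pump of the lysosome, 4 rose and 3 fell upon Tip60 KD, 2 and 1 upon Hdac6 KD and 3 and 5 in double KD. These are 43.8%, 18.8% and 50%, the first near and the second below the share of all genes. Atp6v0a2 (1.17) and Atp6v0c (0.81) rose and Atp6v1g1 (-1.0) fell upon Tip60 KD.

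Of 11 regulators of these genes 4 rose and 3 fell upon Tip60 KD, 2 and 2 upon Hdac6 KD and 2 and 1 in double KD (63.6%, 36.4% and 27.3%). Fnip1, whose complex with folliculin acts on the kinase mTORC1 at the lysosome and holds Tfeb in the cytoplasm, fell by 1.12, 0.55 and 0.86. Flcn, which encodes folliculin, fell by 0.77 upon Tip60 KD, and Rragc, a small GTPase of the same pathway, rose by 0.49 upon Tip60 KD and 0.88 upon Hdac6 KD. Of 11 genes of the aggresome pathway 5 rose and 1 fell upon Tip60 KD, 3 and 1 upon Hdac6 KD and 1 and 1 in double KD, or 54.5%, 36.4% and 18.2% called, the last below the share of all genes. Vim, whose filaments cage the aggresome and which fibroblasts also express, rose by 1.06, 0.42 and 1.09. Ubqln2, a shuttle for ubiquitinated proteins, rose by 0.63 and 0.61 in the single knockdowns, and Plaa, a ubiquitin-binding partner of the segregase p97, fell by 0.49 upon Tip60 KD and 0.57 in double KD. Plaa had no value on Hdac6 KD array A, so its call there, the 1 decrease of the aggresome genes upon Hdac6 KD, rests on a single array assumed to vary like the other groups.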

How the data were processed

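Total RNA of 8 ESC samples (4 groups, replicates A and B) was hybridised to 1-colour Agilent arrays. The authors deposited scanner output of Feature Extraction 10.7.1.1, which holds background-subtracted processed signal intensity per spot, and a table of normalised values on a log2 scale whose method is not given in the sources used here, which was used as an alternative only. Probe positions are those of mm9 per the file headers.

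The processed intensity was averaged over the spots of a probe without outlier flags, divided by the array's 75th percentile, raised to a common floor of 0.1528 and converted to log2. A probe entered the tests if 2 or more arrays had it both above that floor and well above background, and the probe with the highest mean stood for its gene. Of all values 8.86% lay at the floor. The number of arrays, 2 per group, limits the precision. Groups were compared with limma 3.58.1 (lmFit and eBayes, R 4.3.3) in 1 fit of the 4 groups, with p-values adjusted by the Benjamini-Hochberg method over 18116 genes (22594 probes where probes were tested singly) and a threshold of 0.1. SE values are those of the fit, with n = 2 arrays per group. The study's methods describe A and B as biological replicates. The script was tested on simulated data.

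Letter A was slide 1 and letter B slide 2. Deviations from the group means were correlated between same-lettered arrays (0.651 to 0.799 over 6 pairs of groups), so the letters pair the arrays. The fit with the letter as a replicate block gave 30, 29 and 29 called members against control KD. Over all 18116 genes it called 11022, 9591 and 10045. Position on the slide coincided with the group, and the effects cannot be told apart. The alternatives were quantile normalisation, normexp background, the authors' values, other treatments of dim probes and of several probes per gene, the block, fits of the compared groups alone, leaving out each array, and a common background chosen after seeing the data.

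Named with per-array values were 18 members and those whose probes went opposite ways. Members, lists and markers were chosen with earlier results of these data known. Promoters are RefSeq windows of GRCm38.p6.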

Additional observations from a re-analysis of the deposited data

Results flagged for a closer look

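The change upon giving the Hdac6 hairpin differed with and without Tip60 knockdown for 16 of 39 members, against 22.0% of all genes. These calls are limma's interaction term at an adjusted p under 0.1 over all genes. The Hdac6 message itself was at 17.8% of control upon Hdac6 KD and 27.3% in double KD, with a called term of 1.05 (adjusted p = 0.00764). Unequal depletion and a changed effect cannot be told apart. Terms above 0, where the double KD lay above the sum of the single changes, were those of Lamp2 (1.78, adjusted p = 0.00744), Bnip3 (1.13, adjusted p = 0.00764), Atg12 (1.00, adjusted p = 0.031), Gabarapl1 (0.75, adjusted p = 0.0351), Atg5 (0.72, adjusted p = 0.0362), Atg4c (0.70, adjusted p = 0.0901), Wipi1 (0.62, adjusted p = 0.075) and Atg4d (0.43, adjusted p = 0.0546). Each of these 8 genes was lower upon both single knockdowns. The single changes enter the term with a minus sign, so that this is not a separate result.

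Terms below 0 were those of Calcoco2 (-1.33, adjusted p = 0.0108), Tfeb (-1.24, adjusted p = 0.00951), Sqstm1 (-0.97, adjusted p = 0.0214), Map1lc3b (-0.87, adjusted p = 0.0152), Atg7 (-0.75, adjusted p = 0.0514), Calcoco1 (-0.67, adjusted p = 0.0307), Becn1 (-0.55, adjusted p = 0.0511) and Atg3 (-0.45, adjusted p = 0.0371). Tfeb, Calcoco1 and Atg7 had control levels near the floor. Several of these calls were lost under alternatives that include a single array left out, those of Atg4c under 11, Wipi1 and Atg7 under 9 and Becn1 and Atg4d under 7 of 17, and the second probe of Sqstm1 had an uncalled term of -0.16. The number called was 8 when Hdac6 KD array B was left out and 10 when control KD array A was.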

How the results depend on the processing

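With calls required to be at least 2-fold, 7, 3 and 4 members passed upon Tip60 KD, Hdac6 KD and double KD, 0 in double KD against Tip60 KD, 2 against Hdac6 KD and 4 for the interaction. Over all 18116 genes 902, 443, 530, 13, 144 and 727 passed, in the same order. Under the other settings on all arrays the 3 counts against control KD stayed within 1.5 times of 24, 20 and 22. The count of 2 in double KD against Tip60 KD became 4 with quantile normalisation, 0 with normexp background, the authors' values, no filter on dim probes, the compared groups alone or the common background, and 17 with the replicate block. The count of 8 in double KD against Hdac6 KD became 19 with the block and 0 with the compared groups alone, and the 16 interaction terms became 25 with the block. Over all genes the calls in these 3 comparisons rose with the block from 672, 1829 and 3990 to 4748, 5325 and 8528. With the compared groups alone no gene was called in double KD against Tip60 KD or Hdac6 KD. Leaving out 1 array gave 19 to 25 members upon Tip60 KD, 11 to 21 upon Hdac6 KD, 15 to 21 in double KD, 0 to 0 against Tip60 KD, 2 to 7 against Hdac6 KD and 8 to 13 for the interaction. Over single members, 3776 of 4170 values stayed on their side of the threshold, 275 lost a call and 119 gained 1. None of the called values changed direction, while values not called could change sign. Of the 46 calls of the 18 members against control KD, quantile normalisation lost 5 and the authors' values 9, Wipi1, Atg5, Atg7 and Calcoco1 among both. Called sizes moved by over 1.5 times for Wipi1 (to -0.15 upon Tip60 KD), Lamp2 (to -0.94) and Sqstm1 (to 0.35) with the mean of their probes, and with the authors' values for Ctsl (to -0.21) and Atg5 (to -0.30) in double KD and for Atg7 (to 0.58, 0.42 and 0.59 in the 3 knockdowns). The cause was not tested. Signal near background limits Atg10, Calcoco1, Tfeb, Atg7 and Optn.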
